A study of Pimephales promelas with 27 samples.

Results

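Ovary RNA of the fathead minnow (Pimephales promelas) was measured on arrays with 15208 probes. The 200 probes whose level varied most between explants of one treatment and time were examined. They were chosen from these values. A probe had to be well above background on all 27 arrays, which 10155 were, and its level was the log2 processed signal minus the log2 of the array's 75th percentile. The SD of the level was taken within each of the 6 groups and averaged, 1729 probes reached a mean SD of 0.6, and the 200 with the highest mean SD were kept. The other 9955 probes well above background on all arrays serve as the comparison below. The members' SD, range and levels are therefore descriptions with no test.

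The study held pieces of ovary in culture with or without DHT (dihydrotestosterone) at 1e-06 M and measured RNA on 1-colour arrays, 1 sample per array. DHT samples numbered 5 at 6 h, 5 at 9 h and 4 at 12 h, and control samples without DHT numbered 4, 5 and 4 at the same times. The labels give the tissue as ovary of females and do not say which explants came from one fish, so the p-values below describe no more than the spread among these arrays, which may be technical. The files pair no probe with a gene, so the ovary label could not be checked against markers, probes are given by ID, and no role is given to any of them.

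An ovary explant is a mixture of follicles, each an oocyte wrapped in granulosa and theca cells, with stroma, vessels and blood cells between them. Fathead minnows spawn repeatedly through a season and carry oocytes of several stages at once, so pieces of ovary can differ in what they hold. DHT binds the androgen receptor and, unlike testosterone, cannot be turned into oestrogen by aromatase. In such a mixture, fewer cells of a type and less RNA per cell cannot be told apart.

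The 75th percentile of the signal ran from 921 to 5709 over the 27 arrays, which lay on 7 slides scanned on 3 days, and 73.9% to 89.9% of probes were well above background on an array. No member was saturated on any array. Slides 5 to 7 and 2 of the scan days held the 12 h arrays and no others.

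Each member spanned at least 8.20-fold between its lowest and highest array, and the median span was 44.0-fold (5.46 on the log2 scale). The median span of the other 9955 probes was 3.33-fold (1.73). The members' mean SD ran from 1.17 to 3.52 with a median of 1.37, against a median of 0.36 for the other probes. UF_Ppr_AF_102401 had the highest SD at 3.52. It was followed by UF_Ppr_AF_116834 at 2.71, UF_Ppr_AF_112305 at 2.70, UF_Ppr_AF_115272 at 2.38 and UF_Ppr_AF_113778 at 2.34. The next were UF_Ppr_AF_117050 (SD 2.31), UF_Ppr_AF_117017 (2.30), UF_Ppr_AF_112177 (2.28), UF_Ppr_AF_117313 (2.28) and UF_Ppr_AF_104300 (2.27). At the edge of the set, UF_Ppr_AF_106653, UF_Ppr_AF_115082, UF_Ppr_AF_116531 and UF_Ppr_AF_114753 stood at SDs of 1.18 and UF_Ppr_AF_110129 at 1.17. Just outside it, UF_Ppr_AM_120355, UF_Ppr_AF_108583 and UF_Ppr_AF_114028 stood at 1.17 and UF_Ppr_AF_100436 and UF_Ppr_AF_105938 at 1.17 and 1.16, so the edge marks no step.

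Most members were dim to middling in level. Of the 200, 47% had a mean level from -4 to -2 and 14% lay above the array's 75th percentile, where 24.9% and 37.3% of the other probes did. Contig names made up 83% of them and 85.4% of the other probes, and names with AM 1% and 2.15%. Members were spread over the array, with 55, 53, 52 and 40 in 4 equal bands of rows from one edge to the other, and 17 had another member in a neighbouring spot. Nor did 1 group alone carry the spread: 132 members (66%) had an SD of at least 0.6 in all 6 groups, as did 2.28% of the other probes. Both of these shares follow in part from the choice of members.

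Members with a high SD among the DHT explants of a time tended to have a high SD among the controls of that time. Across the 200 members, the SD over DHT arrays and the SD over control arrays had an r of 0.40 at 6 h, 0.76 at 9 h and 0.60 at 12 h. For the other 9955 probes it was 0.72, 0.74 and 0.64, so a likeness of the arms in SD was found in them as well. Between arms at different times, r ran from -0.18 to 0.22 for the members and from 0.42 to 0.47 for the other probes. Choosing members by the mean of the 6 SDs itself lowers an r of either kind. Nothing is therefore read from how the members' r compares with that of the other probes, within or between times. These are correlations across probes, which are not independent. The lists of 200 made from the 14 DHT arrays alone and from the 13 control arrays alone had 136 probes in common, 68% of each. The arms are no independent repeats of each other, since 22 of the 27 arrays form pairs of a DHT and a control array with like levels (below). What partners share enters both lists and both SDs of a time, so nothing is read from the overlap.

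**Figure D1:**
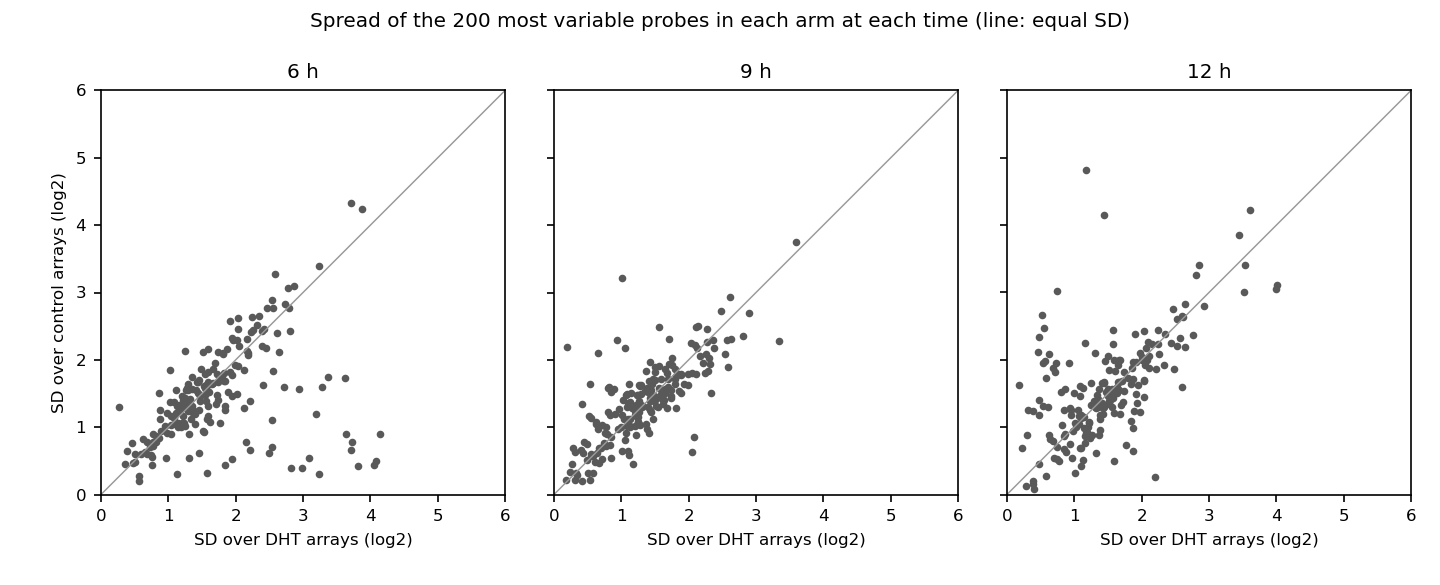
SD of each member over the DHT arrays (x axis, log2) and over the control arrays (y axis, log2) at 6, 9 and 12 h, 1 point per probe, with the line of equal SD. Points follow the line at each time (r of 0.40, 0.76 and 0.60), apart from a set at 6 h that varied over the DHT arrays and little over the control arrays. At 12 h some members varied more over the control arrays, such as UF_Ppr_AF_115272 (SD 4.82 in controls, 1.18 with DHT) and UF_Ppr_AF_107896 (2.48 and 0.56).

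Many members took a high or a low level with few arrays between. A member was counted as having 2 levels where its sorted levels left a gap of at least 1 (2-fold) with at least 3 arrays on each side. This held for 105 of the 200 members (52.5%) and for 152 of the other 9955 probes (1.53%), and both shares depend on the spread the members were chosen for. The medians of the high and low arrays were 4.18-fold to 326-fold apart, with a median of 11.8-fold. Within a level the arrays still varied, with a median SD of 0.56 among the low and 0.59 among the high arrays. The mean SD of the other probes, taken within groups, had a median of 0.36. Because members were well above background on all arrays, a low level here was still a measured signal. Where the low level is dim, the fold between the levels can depend on how background is treated.

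UF_Ppr_AF_112305 had the widest gap, at 4.24. Its level was 2.62, 1.86, 1.98, 3.09 and -4.44 in the DHT explants of 6 h and 2.99, 1.79, 2.70 and 2.14 in the controls of 6 h. At 9 h it was 2.06, 1.74, 2.91, 2.84 and -5.00 with DHT and 2.03, 2.25, 2.30, 2.31 and -2.87 in controls. At 12 h it was 2.35, 1.68, -5.02 and 2.02 with DHT and 1.89, -5.09, 1.37 and 1.90 in controls. The 22 high and 5 low arrays did not overlap, their medians were 137-fold apart, and both arms held low arrays at 9 and 12 h.

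UF_Ppr_AF_102401, the member with the highest SD, was low in 10 arrays and high in 17, with medians of -3.41 and 3.33. In the DHT explants of 6 h it stood at 1.47, 3.33, -3.16, 3.33 and 3.70, and in the controls of 6 h at 3.24, -3.29, 1.61 and 3.30. The values of 9 h were 3.38, -4.20, -3.53, -1.62 and 3.01 with DHT and 3.35, 3.45, -3.96, -3.11 and 3.07 in controls. Those of 12 h were 4.04, -3.64, 3.29 and 3.27 with DHT and 3.94, -3.29, -3.92 and 3.45 in controls. Every group held high and low arrays, and the value of 1.47 in a DHT explant had a near match, 1.61, in a control explant of the same time.

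The other members with the widest gaps differed in which arrays were low. UF_Ppr_AF_104300 (gap 4.01, medians 23.2-fold apart) was low, from -3.23 to -2.35, in 9 arrays of all 3 times and high in 18. UF_Ppr_AF_107384 (gap 3.70, 41.6-fold) was low in 4 arrays, at -4.34 and -3.53 in DHT replicates 3 of 6 h and 2 of 12 h, and at -4.23 and -3.49 in control replicates 2 of 6 h and 3 of 12 h. UF_Ppr_AF_111076 (gap 3.48, 57.0-fold) was high in 7 arrays. These were DHT replicates 2 (0.75) and 4 (0.70) and control replicates 2 (0.95) and 3 (1.06) of 9 h, DHT replicates 2 (1.36) and 3 (1.41) of 12 h and control replicate 3 (1.16) of 12 h. All 9 arrays of 6 h were low for UF_Ppr_AF_111076, between -5.83 and -4.34. UF_Ppr_AF_117886 (gap 3.47, 57.0-fold) had low arrays at 12 h alone, with DHT replicates 1 and 4 at -5.72 and -4.99 and control replicates 1, 2 and 4 at -5.14, -5.65 and -4.65.

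**Figure D2:**
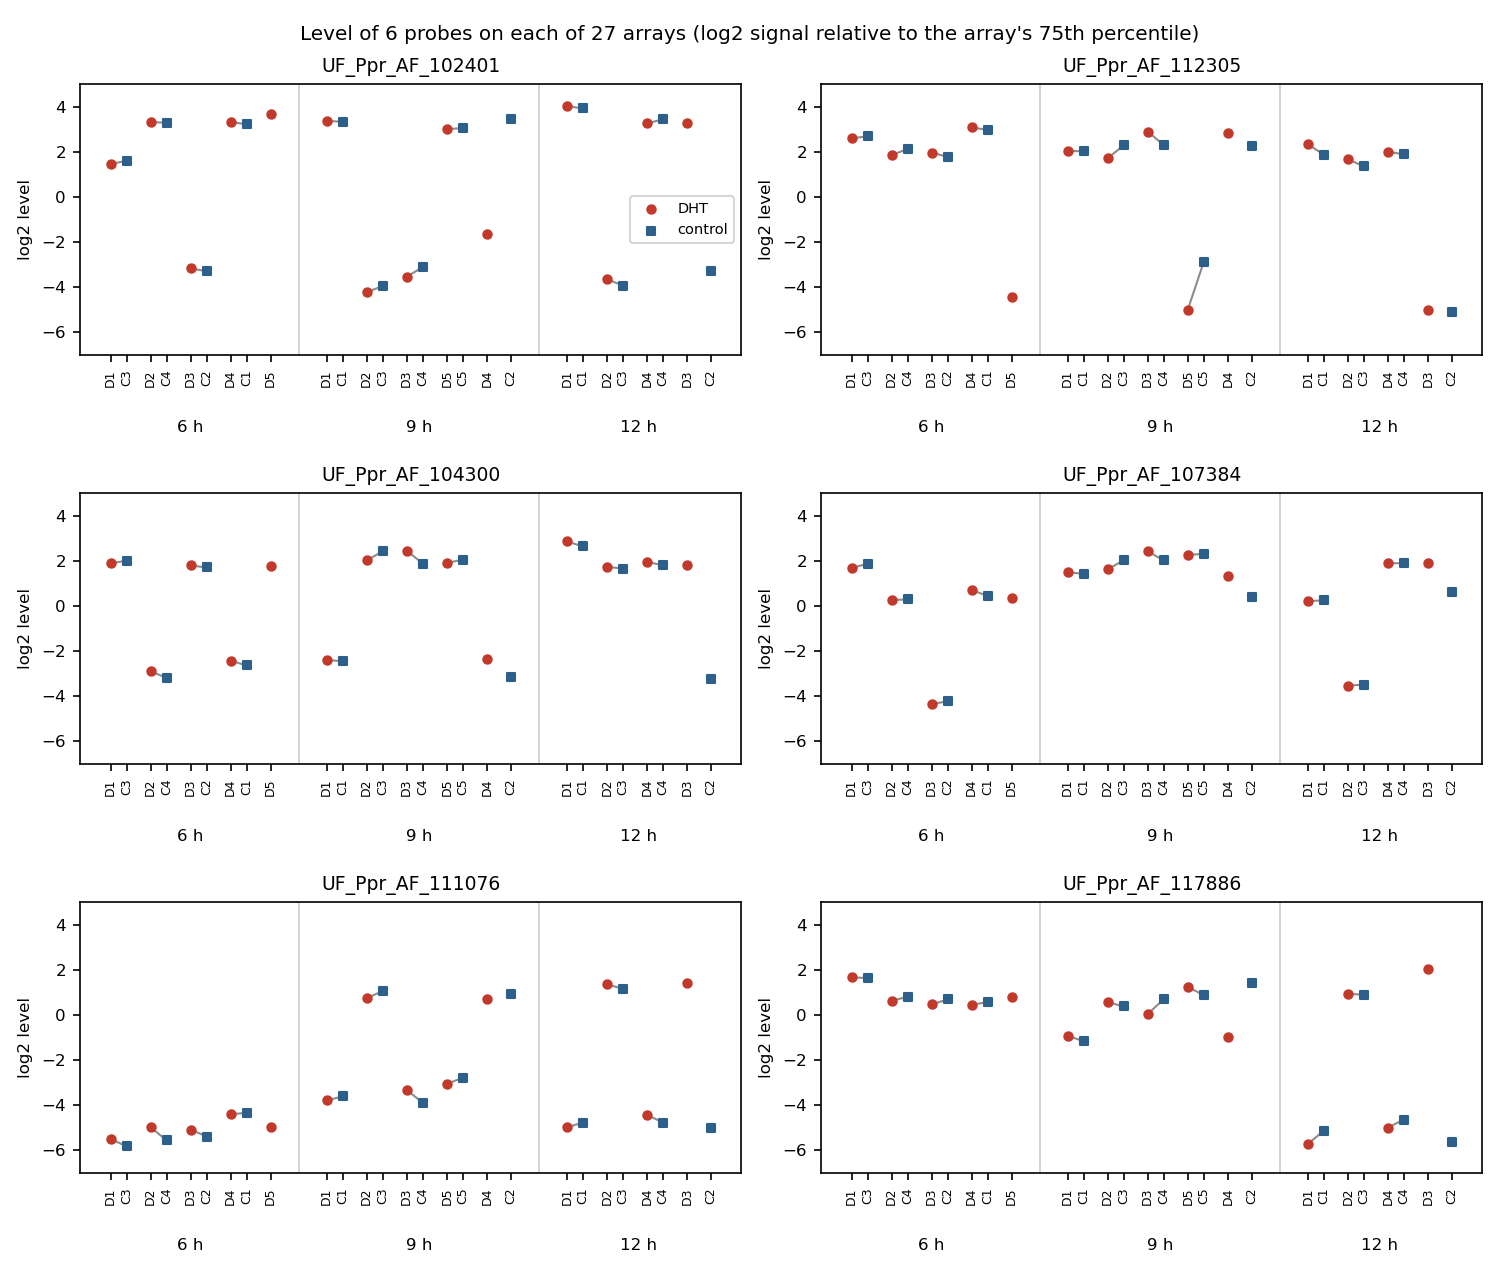
Level (log2 signal relative to the array's 75th percentile) of 6 members on each of the 27 arrays. Circles are DHT arrays (D) and squares control arrays (C) with their replicate numbers, grey lines join arrays that are partners by likeness, and arrays without a partner stand last at each time. Joined arrays lie at about the same level, for UF_Ppr_AF_112305 with the exception of -5.00 and -2.87 at 9 h, while unjoined arrays of one time can be far apart.

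Both levels appeared at all 3 times in 50 of the 105 members, at 2 times in 43 and at 1 time in 12, and 30 had both levels in all 6 groups. The high level was the common one in 41 members (19 to 24 of 27 arrays), the rare one in 32 (3 to 8 arrays), and 32 lay between. An array was high for 42 to 73 of the 105, with DHT 6 h replicate 2 at 73 and DHT 6 h replicate 4 and control 6 h replicate 1 both at 42. No array was thus high or low throughout. Of the 200 members, 4 had 3 levels: UF_Ppr_AF_102401, UF_Ppr_AF_117017, UF_Ppr_AF_111495 and UF_Ppr_AF_114406. The last 2 were chosen for mention after their values were seen.

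Array by array, the explants formed pairs of a DHT and a control array. Partners were arrays of one time that were each other's most alike array, by Pearson r of deviations from the mean of that time over the other 9955 probes, which the members are not part of. This gave 11 pairs with 1 array of each arm and left 5 arrays without a partner. The same 11 pairs came from the 200 members alone. The r values are across probes of the same arrays, with no p, and the pairs were read from the data, not from labels.

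At 6 h, DHT replicates 1, 2, 3 and 4 had control replicates 3, 4, 2 and 1 as partners, with r over members of 0.97, 0.33, 0.95 and 0.95. At 9 h, DHT replicates 1, 2, 3 and 5 had control replicates 1, 3, 4 and 5, with r of 0.95, 0.94, 0.89 and 0.96. At 12 h, DHT replicates 1, 2 and 4 had control replicates 1, 3 and 4, with r of 0.94, 0.72 and 0.91. DHT 6 h replicate 5, DHT 9 h replicate 4, control 9 h replicate 2, DHT 12 h replicate 3 and control 12 h replicate 2 had none. The 11 pairs had a median r of 0.94 over members and of 0.69 over the other probes (0.44 to 0.86). All 98 further pairings of arrays of one time had an r over members between -0.52 and 0.22, with a median of -0.24. Centring on the mean of a time pulls such values below 0. Over the other probes these pairings had a median r of -0.24, but the highest was 0.54, between DHT 9 h replicate 2 and control 9 h replicate 2. It exceeded the 0.44 of DHT 9 h replicate 3 and the 0.49 of DHT 6 h replicate 2 with their partners. The partner of DHT 9 h replicate 2 had 0.64, so pairs stood apart less clearly over the other probes than over members. Members were chosen for a large spread between arrays, which itself raises r between like arrays. That contrast is therefore in part built in, and nothing is read from it.

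Partners were on one slide in 7 pairs and on different slides in 4 (r over members of 0.97, 0.33, 0.95 and 0.72), and in 1 pair they were scanned on different days. The 21 pairings of non-partners that lay on one slide had an r from -0.52 to -0.05. Of all 27 arrays, 24 had their most alike array of the time in the other arm over members, and 23 over the other probes. Across times, the highest r over members among 242 pairings was 0.53, between DHT 6 h replicate 2 and control 12 h replicate 2, and the median was -0.01.

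**Figure D3:**
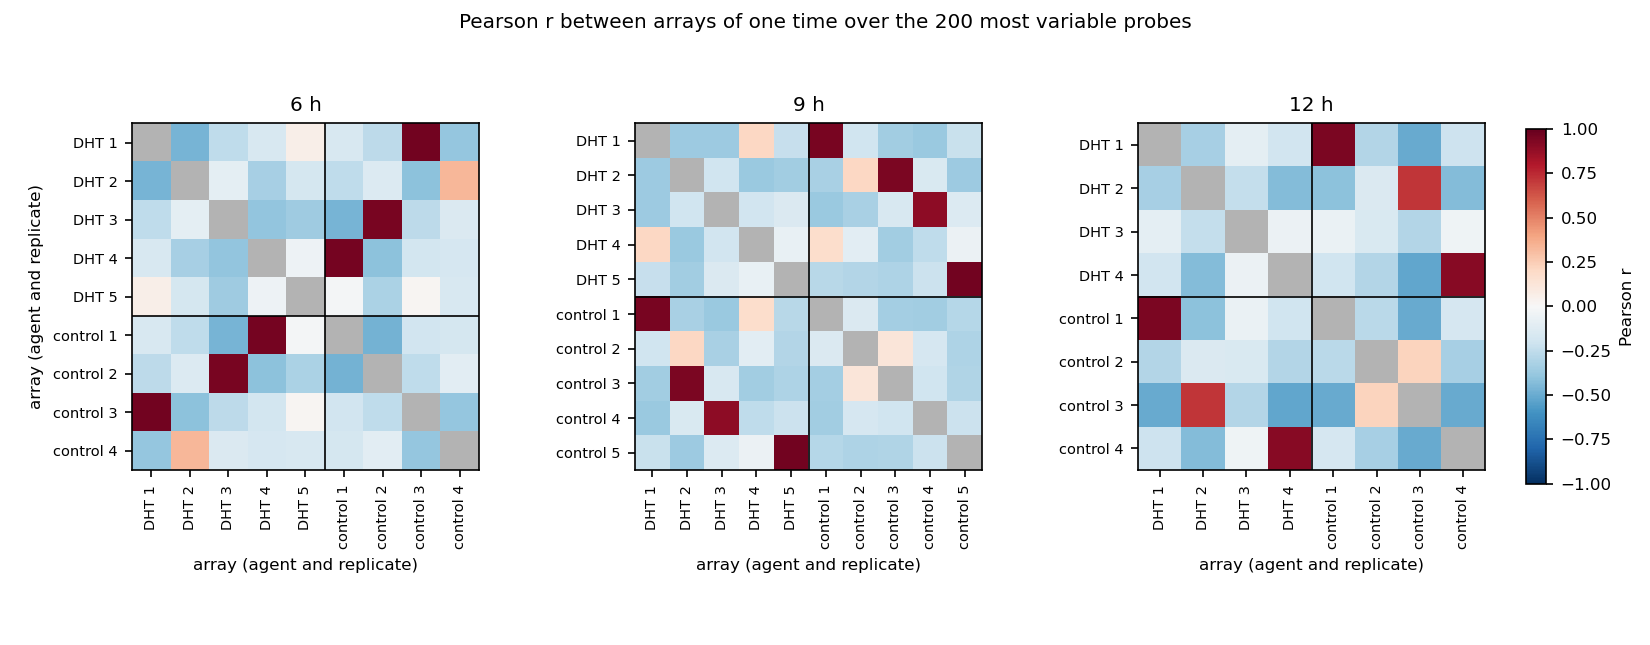
Pearson r between arrays of 6, 9 and 12 h over the 200 members, as deviations from the mean of the time, with DHT arrays above and left of control arrays (grey: the array itself). The pairs are all between arms and show as red squares off the diagonal, dark for most of them. They are paler for DHT 6 h replicate 2 (0.33) and DHT 12 h replicate 2 (0.72) with their partners. The 98 remaining pairings lie between -0.52 and 0.22.

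The levels of the members were close in partners. The median absolute difference between a DHT array and its control partner was 0.23 (1.17-fold) over the members, and 94.1% of the differences were under 2-fold. Between a DHT and a control array of one time that were not partners it was 1.32 (2.50-fold), with 41.3% under 2-fold. For the other probes the medians were 0.18 and 0.36. Of the members' variance about the means of the times, a median of 2.90% lay within pairs, against 35.4% for the other probes, and the share was under 10% for 156 members (78%) and 14.9% of the other probes. The members were chosen for a large variance between arrays, which is the denominator, so a lower share than in the other probes is in part built in. Both parts of the share rest on the 22 paired arrays. A share exceeds 100% where partners differ more than the paired arrays of a time do in general, and the highest was 122%.

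High and low levels followed the pairs. Of 1155 placements of a pair in a 2-level member, 1138 (98.5%) had both arrays on one side of the gap, against 3276 of 5250 (62.4%) for DHT and control arrays of a time that were not partners. In 95 of the 105 members all 11 pairs lay on one side each. The 17 exceptions fell in 5 pairs: 8 with DHT 6 h replicate 2, 6 with DHT 12 h replicate 2, and 1 each with DHT 6 h replicate 3, DHT 12 h replicate 1 and DHT 12 h replicate 4.

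With each pair counted as 1 source, the 27 arrays gave 16 sources (11 pairs and 5 single arrays). This is a way of counting, and the labels tie no source to a fish. The 95 members, taken because no pair was split in them, showed 88 different sets of high and low sources. A set of its own was held by 82 members. The most frequent set occurred in 3 members, UF_Ppr_AF_107674, UF_Ppr_AF_107458 and UF_Ppr_AF_115057, which were high in DHT 9 h replicates 4 and 5 and control 9 h replicate 5 alone. UF_Ppr_AF_115057, named after its values were seen, stood there at 1.47, 1.29 and 1.51, and between -4.99 and -0.28 elsewhere. Of the 95, 36 were low in 1 to 4 of the 16 sources, 38 in 5 to 11 and 21 in 12 to 15. Which sources were low therefore differed from probe to probe.

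Only some members moved together. Over the 27 arrays the median r between members was 0.02 among 19900 pairs of members. An r of at least 0.5 was found in 1251 of these (6.29%), and an r of -0.5 or lower in 751. As 22 of the arrays form pairs that were alike over most members, these r values rest on fewer than 27 independent values. A large r of either sign then arises more readily by chance, and how many would do so was not tested. The best r of a member with another had a median of 0.74, and being the best of many it is high in part by choice. The same values over the other probes are not given here. Average linkage of deviations from the time means, divided at r of 0.5, gave 10 groups of at least 5 members. They held 87 members, and 113 were in none. The groups come from the values and have no test. Their number ran from 8 to 15 with 1 array left out. Dividing the tree at r of 0.7 left 26 members in groups. In 1 group there stayed 8 of the members of group 1 and 12 of those of group 2, so the groups depend on the setting.

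Group 1 held 21 members, led by UF_Ppr_AF_107674, UF_Ppr_AF_107120 and UF_Ppr_AF_107458, and included UF_Ppr_AF_102401 and UF_Ppr_AF_107384. Its mean level was lowest in 2 pairs, at -4.08 in DHT 6 h replicate 3 and -4.03 in its control partner, and at -3.67 in DHT 12 h replicate 2 and -3.85 in its partner. It was highest in DHT 9 h replicate 5 at 0.21 and its partner at 0.28. The other arrays lay between, from -2.10 to -0.15. The largest difference of a pair in the group mean was 0.32, against a median of 1.14 between non-partners.

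UF_Ppr_AF_107458 shows the group in single values. Its level was -2.05, -2.70, -4.77, -2.04 and -1.76 with DHT at 6 h and -2.12, -4.45, -2.31 and -2.84 in controls. It was -1.74, -1.62, -0.68, 1.35 and 1.17 with DHT at 9 h and -2.16, -2.07, -2.20, -1.13 and 1.24 in controls. At 12 h it lay between -5.69 and -2.28 with DHT and between -6.00 and -3.15 in controls. DHT 9 h replicates 4 and 5 and control 9 h replicate 5 were the high arrays, and the arms overlapped at every time.

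Group 3 held 9 members, led by UF_Ppr_AF_111882, UF_Ppr_AF_117017 and UF_Ppr_AF_111147. Its mean was lowest in DHT 6 h replicate 4 (-4.34) and control 6 h replicate 1 (-4.36), and next in DHT 12 h replicate 4 (-2.93) and control 12 h replicate 4 (-3.02). UF_Ppr_AF_111882 stood at -4.80 and -4.77 in the first of these pairs and at -4.89 and -4.51 in the second, DHT before control. Group 4 held 8 members, led by UF_Ppr_AF_111219, UF_Ppr_AF_111602 and UF_Ppr_AF_118875, and its mean was high in 3 pairs. It was -1.86 in DHT 6 h replicate 2 and -1.71 in its control partner, -1.77 in DHT 9 h replicate 3 and -1.61 in its partner, and -2.18 in DHT 12 h replicate 4 and -1.92 in its partner. Control 12 h replicate 2, with no partner, stood at -2.19, and the other arrays lay at -2.70 or lower. UF_Ppr_AF_118875 and UF_Ppr_AF_111219 carry the same contig in their names and had an r of 0.97 over the arrays. UF_Ppr_AF_118875 was at -1.92 and -2.02 in DHT 9 h replicate 3 and its partner, and between -5.68 and -4.55 in the other 8 arrays of 9 h. For groups 3 and 4 the largest difference of a pair was 0.23 and 0.27.

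Of the contigs on the array, 4 had 2 members each. The r of the 2 probes was 0.97 in 2 of these contigs, 0.73 in the next and 0.42 in the last, so probes of one contig did not always vary alike.

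**Figure D4:**
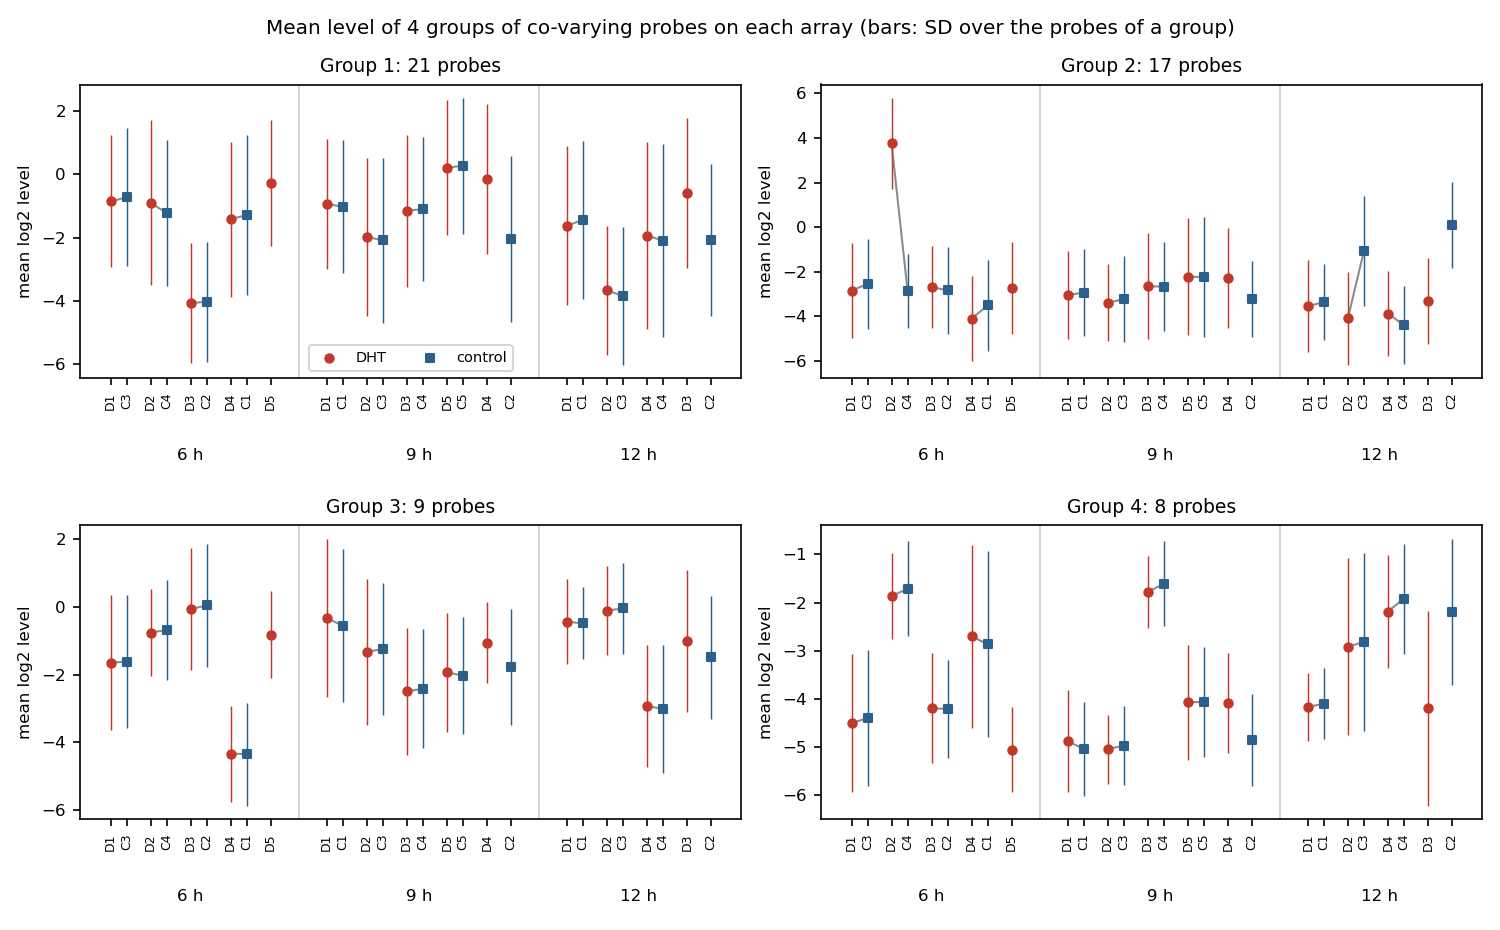
Mean level (log2) of the 4 largest groups of co-varying members on each array, with bars for the SD over the members of a group. Circles are DHT (D) and squares control (C) arrays, and grey lines join partners. Joined arrays differ by at most 0.32, 0.23 and 0.27 in groups 1, 3 and 4, while DHT 6 h replicate 2 lies 6.61 above its partner in group 2.

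Group 2 differed from the rest in that it separated partners. It held 17 members, led by UF_Ppr_AF_107896, UF_Ppr_AF_102718 and UF_Ppr_AF_118133, and included UF_Ppr_AF_115272 and UF_Ppr_AF_115082. Its mean was 3.76 in DHT 6 h replicate 2 and -2.84 in the control partner of that array. At 12 h its mean was 0.10 in control replicate 2, which has no partner, and -1.07 in control replicate 3, against -4.09 in DHT replicate 2, the partner of control replicate 3. On the other 24 arrays it lay between -4.39 and -2.22. The high arrays were thus 1 of 14 DHT arrays and 2 of 13 control arrays.

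UF_Ppr_AF_107896 was at 5.96 in DHT 6 h replicate 2 and from -3.94 to -1.56 in the other DHT explants of 6 h, with -2.69, -2.50, -3.29 and -2.07 in controls. At 9 h it lay from -3.68 to -3.08 with DHT and from -4.17 to -3.39 in controls. At 12 h it was -2.02, -2.68, -2.76 and -3.38 with DHT and -2.19, 1.42, 0.72 and -3.85 in controls. UF_Ppr_AF_102718 stood at 7.32 and UF_Ppr_AF_118133 at 4.65 in DHT 6 h replicate 2, and their next highest arrays were control 12 h replicate 2 at 3.29 and 0.89 and control 12 h replicate 3 at 2.46 and -0.75. The order of these 3 arrays was the same in all 3 leading probes.

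In the pair of DHT 6 h replicate 2, 31 members were over 4-fold apart, all 31 of them higher in the DHT array, and all 17 members of group 2 were among them. The largest difference was 8.85, for UF_Ppr_AF_105655, at 6.01 in the DHT array and -2.84 in its control partner. In the pair of DHT 12 h replicate 2, 13 members were over 4-fold apart, 11 of them in group 2, and 16 of the 17 members of group 2 were lower in the DHT array. The largest was UF_Ppr_AF_115272, at -4.83 in the DHT array and 5.04 in its control partner. The other 9 pairs had 0 to 4 members over 4-fold apart. Without group 2, r over members of these pairs was 0.63 and 0.95, where it was 0.33 and 0.72 with it. Group 2 was formed from these same values and holds many of the probes that differed most, so such a rise is built in. UF_Ppr_AF_105655 was named for its value.

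**Figure D5:**
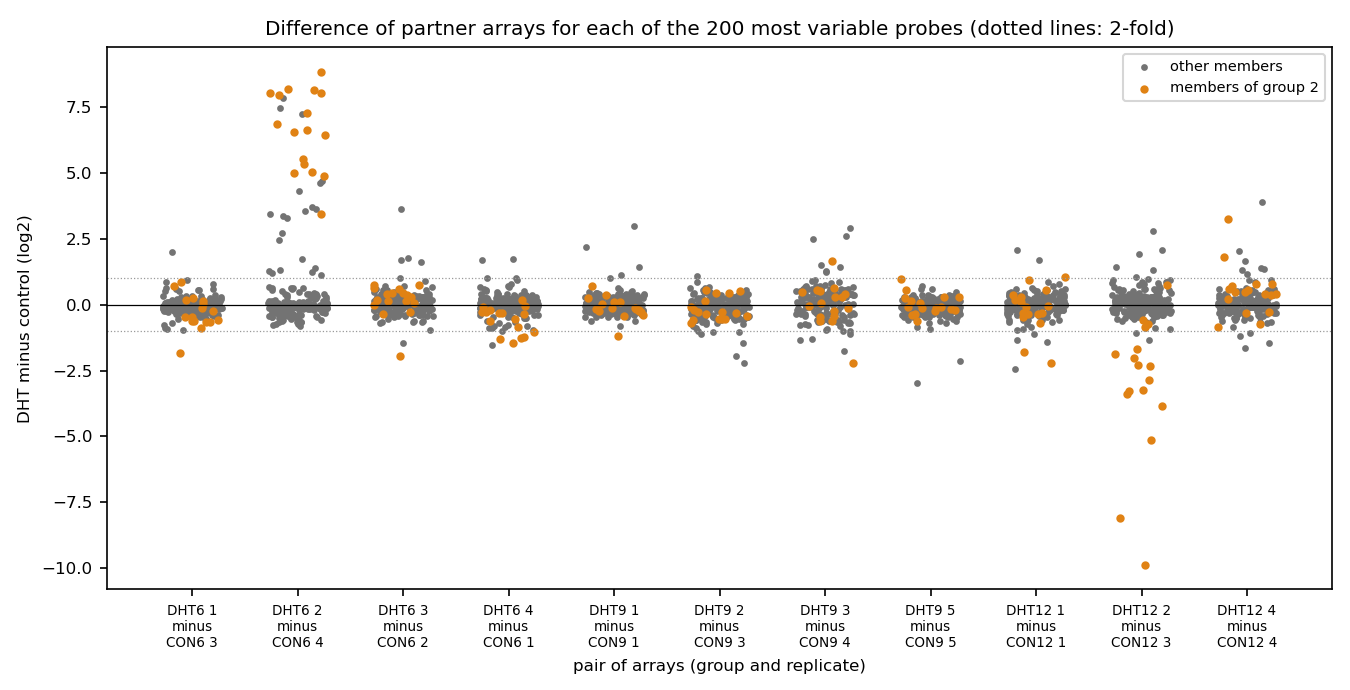
DHT minus control (log2) within each of the 11 pairs, 1 point per member, with the 17 members of group 2 in orange and the others in grey (dotted lines: 2-fold). Most points lie within 2-fold in every pair; the orange points lie above 3.4 in the pair of DHT6 2 and mostly below 0 in that of DHT12 2.

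The within-pair share of the variance was over 50% in 21 members (10.5%), 14 of them in group 2, and in 35.3% of the other probes. Among the 7 outside group 2 were UF_Ppr_AF_115736, UF_Ppr_AF_111538, UF_Ppr_AF_111085, UF_Ppr_AF_103802 and UF_Ppr_AF_104039. UF_Ppr_AF_109738, singled out after its values were seen, was the member with the largest difference in 4 of the 11 pairs, at 2.01, 3.64, -2.21 and 3.92. Over the 11 pairs it was higher with DHT in 8 and lower in the rest, with a mean difference of 1.28 (SD 2.06).

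Whether DHT changed the members was tested with limma over all 13714 probes tested and all 27 arrays, of which 199 members were part. The members were picked for the spread that is the error of this test. The fit also takes all arrays as independent, though 22 of them form the 11 pairs above. What partners share thus stays in its error, and its p-values for DHT against control tend to be too large. For these reasons 0 calls in it do not show that DHT left the members unchanged. At an adjusted p under 0.05, limma called 0 of 199 members in each of the 3 times and in their average, where it called 0% of all probes. The members at an unadjusted p under 0.05 were 1 for 6 h (0.503%, against 0.430% of all probes), 0 for 9 h (2.63% of all probes), 2 for 12 h (1.01%, against 2.78%) and 2 for the average (1.01%, against 5.18%). For a DHT effect that changes with time (the interaction in limma), 0 members and 0% of all probes were called. At an unadjusted p under 0.05 in limma were 0 members, against 0.540% of all probes. The median SE of a difference was 0.97, 0.91, 1.02 and 0.56 for the members and 0.31, 0.29, 0.32 and 0.18 for all probes. A 2-fold change in a member was thus about the size of its SE at a single time, and above its SE in the average.

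The members nearest to the threshold did not pass it. UF_Ppr_AF_115736 had levels at 6 h of -0.48, 3.18, 1.30, 1.77 and -0.29 with DHT and of 0.08, 0.29, -1.10 and -4.31 in controls. Its difference was 2.35 (SE 0.90, limma adjusted p = 1.00) and 1.34 without control 6 h replicate 4, and the arms overlapped. Slide 2 alone held arrays of both arms at that time, 4 with DHT and 1 control, and gave 1.15. UF_Ppr_AF_104680 had the smallest p among members lower with DHT at 6 h, with a difference of -0.82 (SE 0.82, limma adjusted p = 1.00), and the difference ran from -1.34 without control 6 h replicate 1 to -0.38 without DHT 6 h replicate 5, and was -0.49 under normexp.

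UF_Ppr_AF_103802 at 9 h was 0.73, -1.37, -0.40, 0.17 and 2.82 with DHT and -2.27, -3.15, 0.09, -3.30 and 2.52 in controls, a difference of 1.61 (SE 0.95, limma adjusted p = 1.00). Within slides 1 to 4 it was 3.44, -1.46, 3.19 and 0.30, and it was 1.00 without DHT 9 h replicate 5 and 2.55 without control 9 h replicate 5. UF_Ppr_AF_109359 differed by -1.41 (SE 0.92, limma adjusted p = 1.00), and by -2.75, 0.45, -1.98 and -0.22 within these slides. Its difference was -0.74 without control 9 h replicate 2 and -0.85 under normexp. Neither probe moved one way on all 4 slides.

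UF_Ppr_AF_111085 at 12 h was -0.19, 0.42, -0.34 and -2.72 with DHT and -2.28, -2.57, -2.40 and -4.77 in controls, a difference of 2.30 (SE 0.87, limma adjusted p = 1.00). It was 2.39 on slide 5 and 2.05 on slide 7. DHT replicate 4 overlapped the controls, and the other 3 DHT arrays lay above them. In each of the 3 pairs of 12 h the DHT array lay above its control partner (-0.19 and -2.28, 0.42 and -2.40, -2.72 and -4.77). At 9 h, DHT replicates 1 (-2.12) and 2 (-2.19) lay below their partners (-1.75 and -1.48). In the average of the times UF_Ppr_AF_111085 differed by 1.43 (SE 0.47, limma adjusted p = 0.910). UF_Ppr_AF_115272 had the smallest p among members lower with DHT, at -4.30 (SE 1.90, limma adjusted p = 1.00) at 12 h and -1.75 (SE 1.04, limma adjusted p = 0.910) in the average. It rested on control 12 h replicates 2 and 3 at 4.12 and 5.04, the high arrays of group 2. Without control 12 h replicate 3 it was -2.78. Its difference was -2.23 on slide 5 and negative on slide 7 too. UF_Ppr_AF_104039 had the smallest p for an effect differing between times (limma adjusted p = 1.00).

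The 11 pairs as a block were an alternative added after the data were seen, fitted to the 22 paired arrays alone. The members' median SE in the average fell to 0.099 there, a value from fewer arrays than in the main fit. In this fit limma still called 0 members in each comparison, and of all probes it called 1 at 6 h and 0 in the others. The members at an unadjusted p under 0.05 were then 3.52% for 6 h (3.18% of all probes), 3.02% for 9 h (4.07%), 11.1% for 12 h (11.5%) and 9.05% for the average (10.2%). UF_Ppr_AF_116834 had the smallest p of the members in the average, with a difference of -0.23 (SE 0.054, limma adjusted p = 0.472). It was lower with DHT in 11 of 11 pairs, by 0.04 to 0.51, while its levels over the arrays ran from -6.41 to 0.42. UF_Ppr_AF_108259, singled out after its values were seen, was the only other member to differ one way in all pairs, and was lower with DHT. That is 1% of the members and 0.0703% of the other probes.

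Change over time in culture was tested in the same fit. Its error counts partner arrays as independent, so it rests on less information than the number of arrays implies. The adjusted p of a change over time may therefore be too small. Between 9 and 6 h, limma called 1 of 199 members in DHT explants (0.795% of all probes) and 1 in controls (1.28% of all probes). Both were lower at 9 h, where 0.467% of all probes were called lower with DHT and 0.809% in controls. Between 12 and 6 h it called 1 in DHT explants (10.8% of all probes) and 3 in controls (10.0% of all probes). The DHT call was lower at 12 h (1.12% of all probes lower, 9.66% higher), and of the control calls 1 was higher and 2 lower (8.74% of all probes higher, 1.27% lower). The arms pair and are no independent repeats of each other, and at 12 h slide and scan day cannot be told apart from time. At an unadjusted p under 0.05 were 19 members with DHT at 9 h (9.55%, against 14.8% of all probes) and 11 in controls (5.53%, against 16.1%). At 12 h there were 16 with DHT (8.04%, against 22.8%) and 11 in controls (5.53%, against 3020 of 13714 probes). The members' shares were below those of all probes in each comparison, and the members were picked for a large error.

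UF_Ppr_AF_111538 was the member called in all 4 of these comparisons. In DHT explants it was -1.34, -3.17, -4.08, -2.97 and -4.09 at 9 h, against 0.07, 1.04, 1.91, 2.79 and 1.04 at 6 h, and the times did not overlap. In controls it was -3.53, -4.12, -1.23, -3.12 and -1.11 at 9 h, against 1.78, 2.58, 0.84 and -1.70 at 6 h, where control 6 h replicate 4 overlapped the later arrays. At 12 h it was -1.98, -2.06, -2.77 and -1.63 with DHT and -1.70, -3.38, -2.76 and -0.17 in controls. The differences from 6 h were -4.50 (SE 0.77, limma adjusted p = 0.00843) with DHT and -3.50 (SE 0.81, limma adjusted p = 0.0350) in controls at 9 h. They were -3.48 (SE 0.81, limma adjusted p = 0.00515) with DHT and -2.88 (SE 0.86, limma adjusted p = 0.0323) in controls at 12 h. Within slides, the change at 9 h was -4.62 and -4.56 with DHT on slides 2 and 3, and -5.61, -3.81 and -0.68 in controls on slides 1, 2 and 4. A fit to the arrays compared alone ended the calls at 9 h (limma adjusted p = 0.112 with DHT and 0.222 in controls) and the control call at 12 h (0.149). Slide as a fixed block also ended the DHT call at 9 h (-3.86, limma adjusted p = 0.0802). Without control 6 h replicate 1, 2 or 3 or control 9 h replicate 1 or 2, the control call at 9 h was lost (limma adjusted p from 0.0590 to 0.135). The control call at 12 h was also lost without control 6 h replicate 1, 2 or 3 or control 12 h replicate 1, 2 or 3 (0.0589 to 0.122).

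UF_Ppr_AF_112680 was higher at 12 h in controls by 3.45 (SE 1.09, limma adjusted p = 0.0445). Its level was 4.35, 3.09, 3.69 and 4.03 in controls at 12 h, against -2.30, 1.90, -1.65 and 3.44 at 6 h. The low arrays of 6 h were 2 pairs, DHT replicates 1 and 4 with control replicates 3 and 1, between -2.30 and -1.65. All other arrays of the study lay between 1.49 and 4.35, so 1 of the 3 control calls at 12 h rests on 2 low control arrays. It was lost without control 6 h replicate 1 (2.56, limma adjusted p = 0.200) or 3 (2.78, 0.151), and without control 12 h replicate 1, 3 or 4 (0.0810 to 0.116). The deposited values (limma adjusted p = 0.0554), slide as a random block (0.0708) and the arrays compared alone (0.152) ended it too.

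UF_Ppr_AF_117886 was lower at 12 h in controls by a log2 difference of -4.56 (SE 1.35, limma adjusted p = 0.0321). Its level was -5.14, -5.65, 0.89 and -4.65 in controls at 12 h, against 0.57, 0.69, 1.63 and 0.80 at 6 h, and control 12 h replicate 3 overlapped the earlier arrays. In DHT explants it was -5.72, 0.94, 2.03 and -4.99 at 12 h, against 0.45 to 1.68 at 6 h. The 2 pairs of replicates 1 and 4 were low and the pair of DHT replicate 2 was high in both arms. Any 1 of control 6 h replicates 1 to 4 or control 12 h replicates 1, 2 or 4 left out ended the call (limma adjusted p from 0.0583 to 0.110), and without control 12 h replicate 3 the difference was -6.07. The call also ended under normexp (-3.90, limma adjusted p = 0.0503) and with the arrays compared alone (0.0910).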

How the data were processed

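RNA of 27 explant samples was hybridised, 1 sample per array, to 1-colour Agilent arrays with Cy3. TRIzol was used for extraction, per the labels' protocols. Per the file headers, the deposited scanner files hold the processed, median and background intensity of each spot and flags for background, saturation and outliers from Feature Extraction 10.7.1.1. The authors' deposited table holds log2 values, and its arrays correlated with the log2 signal at r of at least 0.998.

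Levels were log2 of the processed intensity minus log2 of the array's 75th percentile. Tests left out probes with an outlier flag on any array, which dropped 1 member, and those not clearly above background on at least 4 arrays. limma 3.58.1 in R 4.3.3 was fitted to 13714 probes and 27 arrays, with Benjamini-Hochberg adjustment over all of them. Descriptions used Python 3.11.15, numpy 2.4.6, pandas 2.3.3 and scipy 1.17.1. The fit was tested on simulated data.

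Members and lists were chosen with earlier results of these data known. Probes named are the 10 with the highest SD, the 5 with the widest gaps, the 3 leads of each of the 4 largest co-varying groups, 5 on each side of the set's edge, the called members (up to 3 a direction), and, where none was called, the 1 of each direction with the smallest p. Others are said to be chosen after their values were seen. Replicates are numbered in accession order, which pairs no samples.

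Alternatives were quantile normalization, normexp (offset 50) on the median signal, as the mean signal it was planned on was not used here, the deposited values, other filters, slide as a block, the arrays compared alone and each array left out. Gene lists and cell type markers were not run, because 0 probes could be matched to a gene name. Precision is limited by the number of arrays.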

Additional observations from a re-analysis of the deposited data

Results flagged for a closer look

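In each group of 4 or 5 arrays, the levels of 37 named members (222 groups) were searched for an array far from the others, by Dixon's 95% critical value. This found 35 values. Chance alone gives about 5% of groups, but the members were chosen for a high spread within groups, so the number of far values follows from that choice and nothing is read from it. DHT 6 h replicate 2 had 5 of them: UF_Ppr_AF_102718 at 7.32, UF_Ppr_AF_115272 at 6.75, UF_Ppr_AF_107896 at 5.96, UF_Ppr_AF_118133 at 4.65 and UF_Ppr_AF_115082 at 1.46, all high and all of group 2. Control 12 h replicate 4 also had 5, with UF_Ppr_AF_111085 at -4.77, UF_Ppr_AF_111882 at -4.51 and UF_Ppr_AF_112177 at -3.16 low and UF_Ppr_AF_118875 at -2.10 and UF_Ppr_AF_111219 at -1.74 high.

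In control 12 h replicate 2, UF_Ppr_AF_112305 (-5.09), UF_Ppr_AF_104300 (-3.23) and UF_Ppr_AF_103802 (1.73) lay below the rest. In control 12 h replicate 3, UF_Ppr_AF_117313 (-5.77) was low, and UF_Ppr_AF_111076 (1.16) and UF_Ppr_AF_117886 (0.89) were high. DHT 12 h replicate 2 was low for UF_Ppr_AF_102401 (-3.64) and high for UF_Ppr_AF_106653 (0.78), and DHT 12 h replicate 3 was low for UF_Ppr_AF_112305 (-5.02).

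At 9 h, DHT replicate 3 was high for UF_Ppr_AF_111219 (-2.05) and UF_Ppr_AF_118875 (-1.92). Its control partner, replicate 4, was high for UF_Ppr_AF_111219 (-2.59) and UF_Ppr_AF_111602 (-0.65). UF_Ppr_AF_112305 was low in DHT replicate 5 (-5.00) and in its control partner, replicate 5 (-2.87). UF_Ppr_AF_116834 was low in DHT replicate 2 (-6.16).

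At 6 h, DHT replicate 1 was low for UF_Ppr_AF_116834 (-6.41) and high for UF_Ppr_AF_117886 (1.68). DHT replicate 5 was low for UF_Ppr_AF_112305 (-4.44) and UF_Ppr_AF_103802 (-1.93), and DHT replicate 3 for UF_Ppr_AF_107384 (-4.34). UF_Ppr_AF_117050 was low in DHT replicate 4 (-5.46) and in its control partner, replicate 1 (-6.15). Control replicate 3 was high for UF_Ppr_AF_109359 (-2.23), and control replicate 4 was low for UF_Ppr_AF_104039 (-4.81).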

How the results depend on the processing

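No paired analysis was possible because the labels give no pairing, other than the added one on the 11 pairs read from the data. That block, fitted to the 22 paired arrays, called 0 members in the DHT comparisons, and of all probes 1 at 6 h and 0 in the others. No alternative run reversed a result. Of 200 members, 193 stayed under quantile normalization, 196 with the deposited values and 166 under normexp. The 11 pairs were found in each of these and without group 2. A gap of 0.5 gave 183 members with 2 levels and a gap of 1.5 gave 55, and dividing the tree at r of 0.7 left 3 groups. With the arrays compared alone, members called were 0 with DHT and 0 in controls at 9 h and 2 with DHT at 12 h. With slide as a fixed block, 0 were called with DHT at 9 h. The shares of all probes called with the arrays compared alone, slide as a fixed block or 1 array left out are not given here. Nothing is therefore read from how these member counts moved.

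With 1 array left out, members called ranged from 1 to 3 with DHT at 12 h (3 without DHT 6 h replicate 4 or DHT 12 h replicate 3, 2 without DHT 6 h replicate 2 or 3). In controls they ranged from 0 to 2 at 9 h (2 without control 6 h replicate 4, 0 without control 6 h replicate 1, 2 or 3 or control 9 h replicate 1 or 2). In controls at 12 h they ranged from 0 to 2 (0 without control 6 h replicate 1 or 3 or control 12 h replicate 1, 1 without control 12 h replicate 2, 3 or 4). The DHT comparisons stayed at 0. Over all alternatives, the limma adjusted p of UF_Ppr_AF_111538 ran from 0.00147 to 0.0219 with DHT at 12 h and from 0.00444 to 0.112 with DHT at 9 h. In controls it ran from 0.0160 to 0.222 at 9 h and from 0.00433 to 0.149 at 12 h. For UF_Ppr_AF_112680 it ran from 0.00784 to 0.200 and for UF_Ppr_AF_117886 from 0.00249 to 0.110. Where a call was lost with fewer arrays, fewer samples entered the fit, and for the other settings the cause was not tested.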
